A study of Mus musculus with 23 samples.

Results

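Collagens are the main structural proteins of the extracellular matrix, and 44 of the 24704 genes named on the arrays were collagen genes. They were taken by symbol, as every gene named Col, a type number, the letter a and a chain number, and no collagen was left out for a low value. By the structure of their proteins, 8 belong to the basement membrane (the 6 type IV chains, Col15a1 and Col18a1), 11 are fibrillar (types I, II, III, V, XI, XXIV and XXVII) and 25 are of other kinds. The 23 arrays measured RNA of primary endothelial cells of the mouse aorta, bought as primary cells and labelled C57BL/6J, which had been grown to confluence in medium with serum and then kept for 48 h with 10% mouse plasma in its place. The plasma came from ApoE-KO mice (5 arrays), ApoE-Stab1-KO mice (6 arrays) or ApoE-Stab2-KO mice (6 arrays), all after 8 weeks of Western diet, or from Wildtype mice (6 arrays). ApoE encodes a lipoprotein component that lets the liver clear lipoprotein remnants, and Stab1 and Stab2 encode the scavenger receptors stabilin-1 and stabilin-2. The genotype was that of the plasma donors, and the treated cells did not differ in genotype between the groups. What the Wildtype donors were fed is not stated, so in a comparison with Wildtype plasma the genotype and the diet cannot be told apart, and the donors' age is not stated either. Whether arrays of a group came from separate cultures or separate mice is likewise not stated. The p-values therefore measure only how far these samples differ from each other, which may be technical.

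A collagen molecule is a triple helix of chains, and many types combine chains from different genes. Endothelial cells rest on a basement membrane whose network is built of type IV collagen, mostly of the chains encoded by Col4a1 and Col4a2, joined to laminin, nidogen and perlecan, while the fibrillar collagens of the vessel wall are made mainly by smooth muscle cells and fibroblasts. New chains are hydroxylated and glycosylated in the endoplasmic reticulum before they are folded, secreted, trimmed and cross-linked.

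Values are log2 expression after RMA, a method that corrects background, brings all arrays to 1 distribution and summarises the probes of a gene, so 1 unit is a 2-fold difference and a difference in a gene is read against all other genes on the array. A log2 level also carries the binding of its own probes, so levels are not ranked between genes here, and a gene counted as above the median had a mean over all arrays above 4.30, the median of all gene means. A level at or below that median does not show that a gene was silent. The arrays were alike, with Pearson r between 0.992 and 0.997 across genes. All 9 endothelial markers were above the median, among them Cdh5 at 12.76 and Pecam1 at 12.46, and the mean of the list lay between 10.93 and 11.15 in every array. Of the smooth muscle markers 2 of 5 were above it (Acta2 and Des, but not Tagln, Myh11 or Cnn1), with list means of 4.21 to 4.41 in all arrays. Of the fibroblast markers 1 of 5 was above it (Pdgfra, but not Dcn, Lum, Dpt or Pdgfrb), with list means of 3.74 to 3.84 in Wildtype, 3.79 to 3.95 in ApoE-KO, 3.76 to 3.96 in ApoE-Stab1-KO and 3.79 to 3.91 in ApoE-Stab2-KO arrays. Of the macrophage markers 1 of 4 was above it (Cd68, at 11.17). Of the lymphatic markers 3 of 4 were above it (Lyve1 at 12.75, Flt4 at 9.64 and Pdpn at 5.015, but not Prox1). No marker of these 5 lists passed the test in any comparison, and their part in the results on collagens was not tested. Fewer cells of a type and less RNA per cell cannot be told apart in such cultures.

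The cultures had 22 of 44 collagens above the median of all genes: 4 of 8 of the basement membrane, 6 of 11 fibrillar and 12 of 25 others. In each of the 23 arrays 21 of them exceeded that array's median, and the last, Col9a3, did so in 17 arrays. The median level of the 44 collagens was 4.34, beside 4.30 for all genes. Chains of 1 type did not always lie on the same side of the median. Of type IV, Col4a1 (10.02), Col4a2 (9.91) and Col4a5 (5.74) were above it, while Col4a3 (3.81), Col4a4 (3.63) and Col4a6 (3.68) were not. All 3 chains of type V, a minor fibrillar collagen that regulates fibril assembly, were above the median, at 7.82 for Col5a1, 6.05 for Col5a2 and 6.47 for Col5a3. Type I, the main collagen of fibrous tissue, had Col1a1 above it at 5.14 and Col1a2 below it at 3.93, and the type III gene Col3a1 stood at 3.98. Type VI, which forms beaded filaments beside basement membranes, had Col6a1, Col6a2, Col6a3 and Col6a6 above the median and Col6a4 and Col6a5 below it. Neither chain of type XI was above it. Of type VIII, a short-chain collagen of endothelial and subendothelial layers, Col8a1 was at 10.01 and Col8a2 at 3.84.

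**Figure D1:**
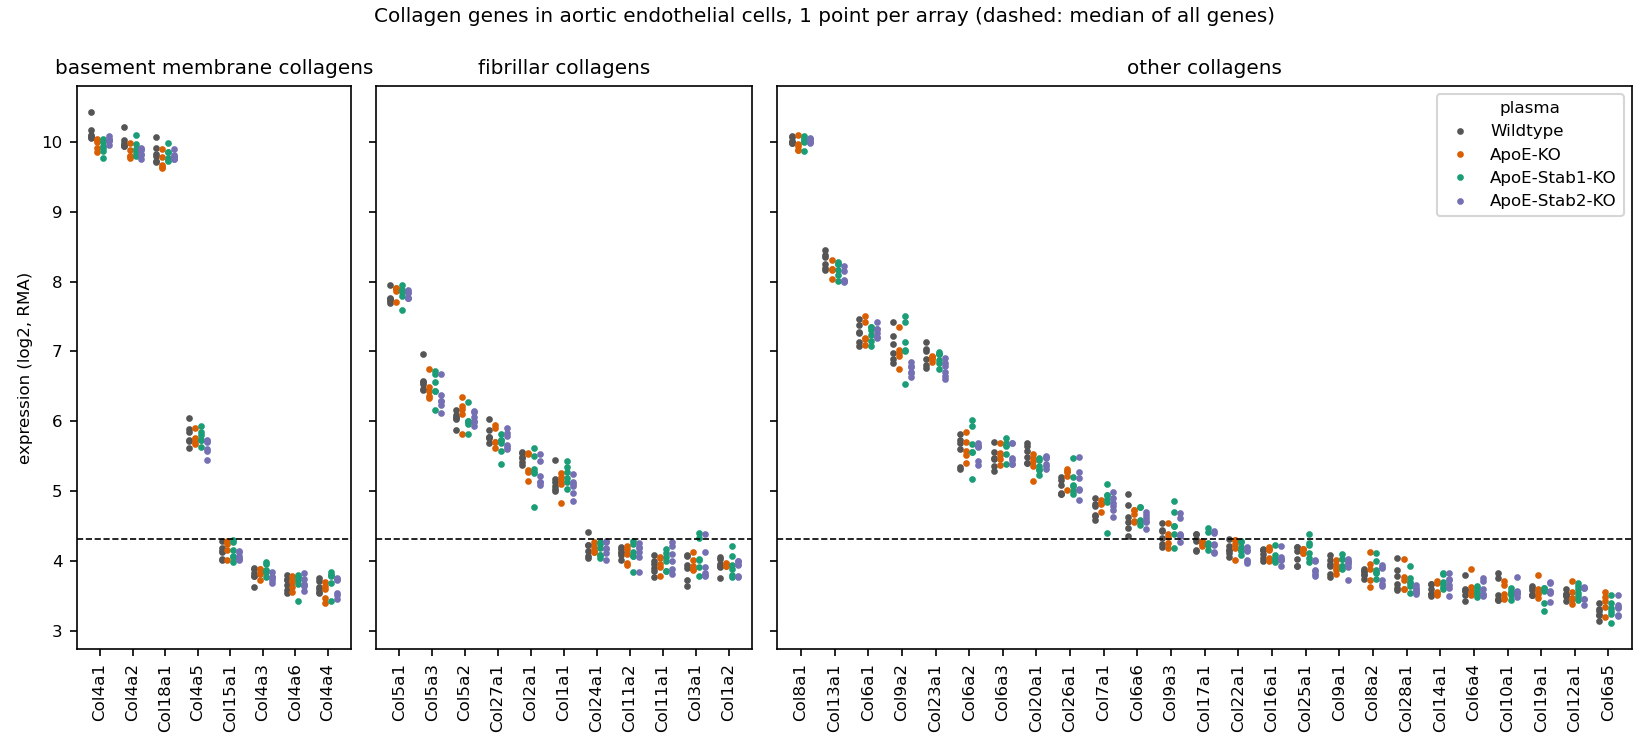
Log2 expression of the 44 collagen genes, 1 point per array, coloured by the plasma the cells were given and grouped as basement membrane (8), fibrillar (11) and other collagens (25); the dashed line is the median of all gene means, 4.30. The 4 colours overlap for nearly every gene, and 22 genes have their mean above the line.

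Across the 4 plasmas no collagen passed limma's moderated F-test at an adjusted p under 0.05, while 0.546% of all genes did. At an unadjusted p under 0.05 there were 6 of 44 collagens, beside 11.9% of all genes. None of the 44 was called in any of the 6 pairwise comparisons either, where the share of all genes called was 0.53% for ApoE-KO against Wildtype, 0.364% for ApoE-Stab1-KO against Wildtype, 0.178% for ApoE-Stab2-KO against Wildtype, 0.00405% for ApoE-Stab1-KO against ApoE-KO, 0.0243% for ApoE-Stab2-KO against ApoE-KO and 0.0486% for ApoE-Stab2-KO against ApoE-Stab1-KO. The count became 1 in the comparison of ApoE-Stab1-KO with Wildtype plasma (Col4a1) when limma's variance estimate was given a trend and made robust. The 264 differences of the 44 collagens over the 6 comparisons ran from -0.36 (0.778-fold, Col9a2 between ApoE-Stab2-KO and ApoE-Stab1-KO plasma) to 0.19 (1.14-fold, Col3a1 between ApoE-Stab1-KO and Wildtype plasma). The median standard error of a difference was 0.0677 for the collagens and 0.0684 for all genes. The 95% interval of a difference stayed within 1.5-fold in either direction for all 44 collagens in 4 of the comparisons and for 43 of 44 in the other two, which compared ApoE-Stab2-KO with Wildtype and with ApoE-Stab1-KO plasma and in which Col9a2 was the exception.

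Against Wildtype plasma the directions of the differences were mixed. With ApoE-KO plasma 22 of 44 collagens were lower (median difference 0.0033, beside 0.0026 for all genes). With ApoE-Stab1-KO plasma 21 of 44 were lower (median 0.013, beside 0.0037). With ApoE-Stab2-KO plasma 27 of 44 were lower, or 61.4% beside 51% of all genes (median -0.017, beside -0.0020). At an unadjusted p under 0.05, 3 collagens were lower and 0 higher with ApoE-KO plasma, where the background was 5.12% of genes lower and 5.41% higher. With ApoE-Stab1-KO plasma 3 were lower and 1 higher, beside 5.55% and 5.74%. With ApoE-Stab2-KO plasma 9 were lower and 0 higher, beside 4.22% and 4.27%. That count of 9 stayed between 7 and 10 when any 1 array was left out. The 3 lower with ApoE-KO plasma became 5 without ApoE-KO replicate 5, Wildtype replicate 4 or Wildtype replicate 6. They became 2 without ApoE-KO replicate 2 or Wildtype replicate 1, 3 or 5. With ApoE-Stab1-KO plasma the 3 lower and 1 higher became 3 and 5 without ApoE-Stab1-KO replicate 1 and 5 and 0 without its replicate 3. The 3 comparisons share the 6 Wildtype arrays. In all 3 of them, 13 of the 44 collagens were lower and 9 were higher. The 22 collagens above the median were lower in 14, 14 and 15 cases with plasma of ApoE-KO, of ApoE-Stab1-KO and of ApoE-Stab2-KO mice, and the 22 at or below it in 8, 7 and 12. Of all genes above the median 48.9%, 48.7% and 51.1% were lower. Without Wildtype replicate 1 the 14, 14 and 15 became 13, 12 and 14.

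**Figure D2:**
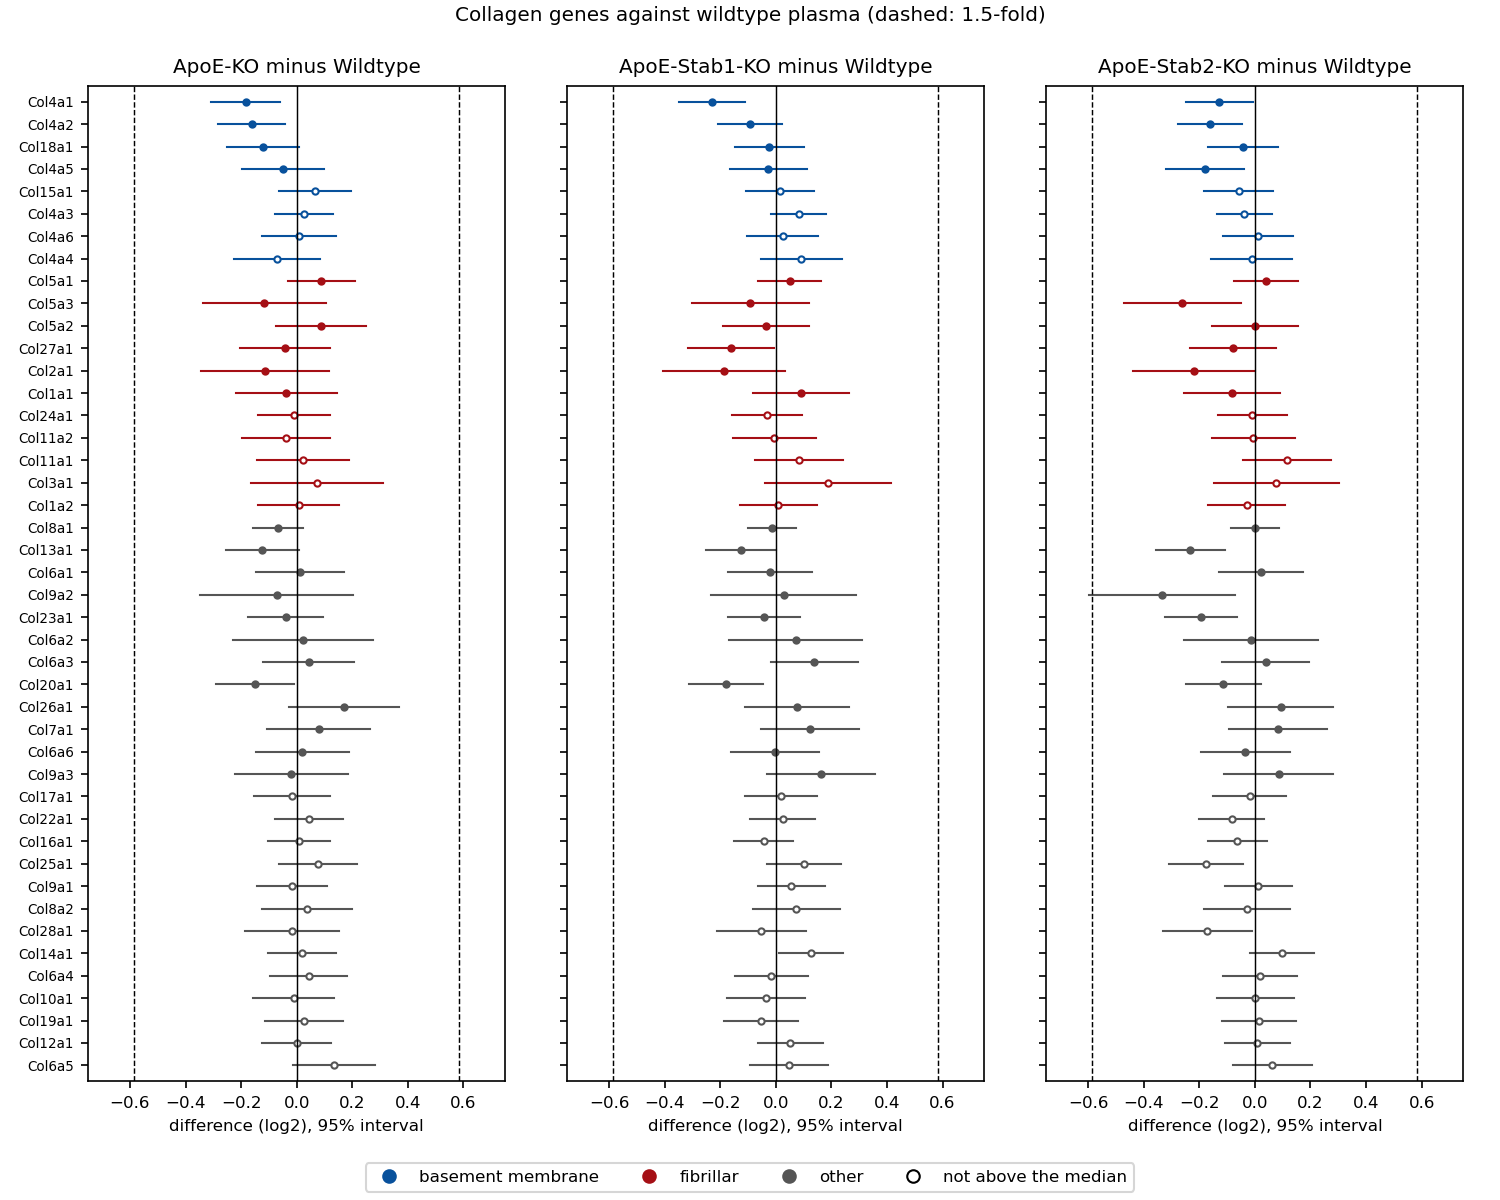
Difference of each collagen gene from Wildtype plasma for the 3 knockout plasmas (log2, point) with its 95% interval from limma (line); filled points are genes above the median of all genes, and the dashed lines mark 1.5-fold. Most intervals span 0. The points of 13 of the 44 collagens, Col4a1 and Col4a2 among them, lie left of 0 in all 3 panels, and those of 9 lie right of 0. The panels share the Wildtype arrays.

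The basement membrane collagens had the member nearest to the threshold. Col4a1 and Col4a2 encode the chains of the common type IV molecule, and they lie head to head on chromosome 8. In RefSeq's GRCm38.p6 the start sites are 21 bases apart, at 11312826 for Col4a1 (minus strand) and 11312805 for Col4a2 (plus strand). As annotated, each gene runs through the start of the other, so their 5' ends overlap and no gap lies between them. The stretches of 300 bases around each start (250 before and 50 after) are shown because they overlap. The Col4a1 stretch is chr8:11312777-11313076 on the minus strand, the Col4a2 stretch chr8:11312555-11312854 on the plus strand, and the capitals mark the bases they share, chr8:11312777-11312854. Each is written 5' to 3' on the strand of its gene.
Col4a1: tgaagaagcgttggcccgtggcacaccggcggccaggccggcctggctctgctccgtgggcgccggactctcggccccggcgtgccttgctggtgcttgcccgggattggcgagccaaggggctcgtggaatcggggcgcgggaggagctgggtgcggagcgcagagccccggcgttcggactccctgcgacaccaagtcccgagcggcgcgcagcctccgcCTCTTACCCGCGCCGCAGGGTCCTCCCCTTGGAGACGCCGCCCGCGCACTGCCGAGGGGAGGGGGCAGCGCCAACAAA
Col4a2: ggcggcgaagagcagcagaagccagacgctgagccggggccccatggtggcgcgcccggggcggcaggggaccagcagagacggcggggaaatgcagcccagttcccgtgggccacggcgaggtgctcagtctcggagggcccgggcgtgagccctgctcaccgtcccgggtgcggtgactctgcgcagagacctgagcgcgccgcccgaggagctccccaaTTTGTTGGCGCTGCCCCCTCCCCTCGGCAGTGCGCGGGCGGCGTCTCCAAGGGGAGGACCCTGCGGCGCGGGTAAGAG
The letters CCAAT, searched on both strands, occurred once in each, and GGGCGG, the core of the GC box, once in the Col4a1 stretch and 3 times in the Col4a2 stretch. A GGGCGG match starting at base 11312812 lies in the shared stretch and so counts for both. Of the 35 collagens with such a stretch in the RefSeq table, 37.1% held CCAAT, 62.9% held GGGCGG and 14.3% held TATAAA, beside 41.1%, 38.2% and 15.7% of 27025 genes. These matches describe letters only.

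For Col4a1 the Wildtype arrays ran from 10.06 to 10.44 with a median of 10.09. The ApoE-KO arrays had 9.86, 9.91, 10.04, 10.04 and 10.00. The ApoE-Stab1-KO arrays ran from 9.77 to 10.05 (median 9.93) and the ApoE-Stab2-KO arrays from 9.96 to 10.08 (median 10.03). Every ApoE-KO and every ApoE-Stab1-KO array lay below the lowest Wildtype array, by narrow margins, while ApoE-Stab2-KO and Wildtype arrays overlapped. Such separation downwards was seen in 0.891% of all genes for ApoE-KO and 0.385% for ApoE-Stab1-KO plasma. Among collagens it occurred for Col4a1 alone in those comparisons. The difference from Wildtype plasma was -0.18 ± 0.06 (SE; limma adjusted p = 0.217) with ApoE-KO, -0.23 ± 0.06 (0.853-fold; adjusted p = 0.0801) with ApoE-Stab1-KO and -0.13 ± 0.06 (adjusted p = 0.552) with ApoE-Stab2-KO plasma, so that none passed. Wildtype replicate 1, at 10.44, stood apart from the other five, of which the highest was 10.17. Without it the differences were -0.13 (adjusted p = 0.395), -0.17 (adjusted p = 0.151) and -0.07 (adjusted p = 0.824).

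For Col4a2 the Wildtype arrays ran from 9.94 to 10.22 (median 9.97), and the ApoE-KO arrays had 9.79, 9.80, 9.77, 9.99 and 9.89. The ApoE-Stab1-KO arrays ran from 9.81 to 10.10 (median 9.89) and the ApoE-Stab2-KO arrays from 9.76 to 9.91 (median 9.86). The ApoE-Stab2-KO arrays all lay below the Wildtype arrays, which 0.514% of all genes also showed downwards, and the other 2 knockout groups overlapped with Wildtype. The differences from Wildtype were -0.16 ± 0.06 (adjusted p = 0.278) with ApoE-KO, -0.09 ± 0.06 (adjusted p = 0.559) with ApoE-Stab1-KO and -0.16 ± 0.06 (adjusted p = 0.367) with ApoE-Stab2-KO plasma. Without Wildtype replicate 1, the highest array at 10.22, they were -0.12, -0.05 and -0.12 (adjusted p = 0.488, 0.804 and 0.615). Whether the plasmas acted differently on the 2 chains was not tested. Within groups, after the group means were removed, the 2 genes had Pearson r = 0.460 (permutation p = 0.0764, adjusted over 5 pairs 0.309) and Spearman rho = 0.404 (permutation p = 0.0730, adjusted 0.347) over 23 arrays. The value depends on single arrays. ApoE-Stab1-KO replicate 1 had the lowest Col4a1 and the highest Col4a2 of its group. Without that array alone r was 0.817 (permutation p adjusted 0.00135), and without Wildtype replicate 1 alone it was 0.105. These are the 2 arrays farthest from the median of Col4a1 after the group means were removed, and leaving out both gave r = 0.591. The other neighbouring pairs gave r = 0.293 for Col4a3 with Col4a4, -0.327 for Col4a5 with Col4a6, -0.038 for Col6a1 with Col6a2 and -0.057 for Col3a1 with Col5a2, with permutation p adjusted at 0.309 or above, so 0 of 5 pairs passed.

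**Figure D3:**
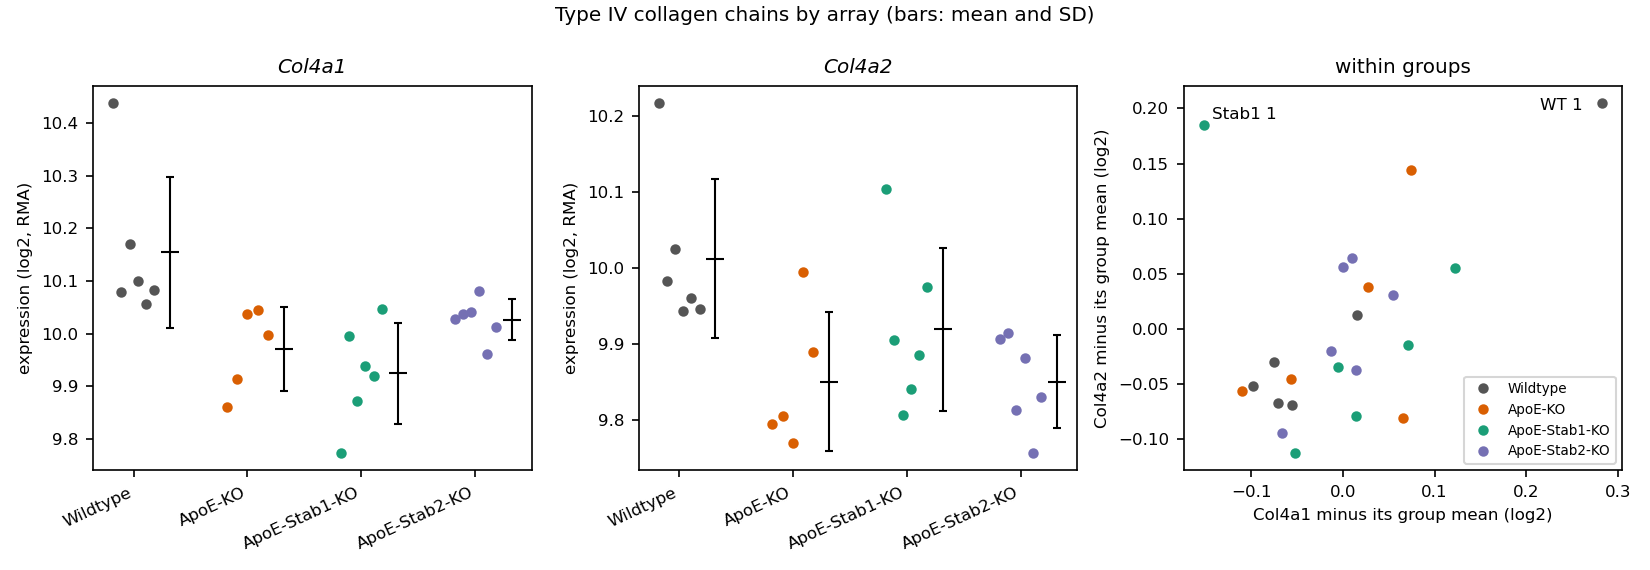
Log2 expression of Col4a1 (left) and Col4a2 (middle) by array and plasma, with the mean and SD of each group, and the deviations of both genes from their group means plotted against each other (right, 23 arrays). Wildtype replicate 1 (WT 1, 10.44 and 10.22) is the highest array of its group for both, and ApoE-Stab1-KO replicate 1 (Stab1 1) is low for Col4a1 and high for Col4a2.

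The other basement membrane collagens also had no called difference. Col4a5, a chain that can replace the common ones in specialised basement membranes, ran from 5.62 to 6.05 in Wildtype (median 5.79) and from 5.44 to 5.73 in ApoE-Stab2-KO arrays (median 5.65), with overlap between the groups. Its difference was -0.18 ± 0.07 (adjusted p = 0.428), and -0.22 (adjusted p = 0.378) without Wildtype replicate 1. Between ApoE-Stab2-KO and ApoE-Stab1-KO plasma it was -0.15 ± 0.07 (adjusted p = 0.414). Col18a1, whose protein carries the endostatin domain, had means of 9.85 ± 0.14 (SD) in Wildtype, 9.72 ± 0.12 in ApoE-KO, 9.82 ± 0.10 in ApoE-Stab1-KO and 9.80 ± 0.05 in ApoE-Stab2-KO arrays, and all 4 groups overlapped. Its largest difference from Wildtype was -0.12 ± 0.06 with ApoE-KO plasma (adjusted p = 0.526). Without Wildtype replicate 1 the Col18a1 differences from Wildtype were -0.07, 0.02 and 0.003 with plasma of ApoE-KO, of ApoE-Stab1-KO and of ApoE-Stab2-KO mice, so 2 of them turned in sign. Col4a3, Col4a4 and Col4a6, at or below the median in all groups, differed from Wildtype by at most 0.09 in size, and Col15a1 by at most 0.06. Between ApoE-Stab1-KO and ApoE-KO plasma Col4a4 differed by 0.16 ± 0.07 (adjusted p = 0.872), and between ApoE-Stab2-KO (mean 3.76) and ApoE-Stab1-KO plasma (mean 3.88) Col4a3 differed by -0.12 ± 0.05 (adjusted p = 0.347). The median difference of the 8 genes from Wildtype was -0.060 with ApoE-KO, -0.0036 with ApoE-Stab1-KO and -0.051 with ApoE-Stab2-KO plasma, and 5, 4 and 7 of the 8 were lower.

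The median differences of the fibrillar collagens from Wildtype were -0.0098, -0.0064 and -0.0088 with plasma of ApoE-KO, of ApoE-Stab1-KO and of ApoE-Stab2-KO mice, with 6, 6 and 8 of 11 genes lower. Col5a1 ran from 7.69 to 7.95 in Wildtype (median 7.75), from 7.59 to 7.95 in ApoE-Stab1-KO (median 7.86) and from 7.76 to 7.88 in ApoE-Stab2-KO arrays (median 7.81), and the ApoE-KO arrays had 7.86, 7.71, 7.92, 7.91 and 7.90. Its differences from Wildtype, 0.09 ± 0.06, 0.05 ± 0.06 and 0.04 ± 0.06, had 95% intervals between -0.07 and 0.21, so changes of 1.5-fold lay outside them. Without Wildtype replicate 1 they were 0.12, 0.09 and 0.08 (adjusted p = 0.499, 0.644 and 0.838). Col5a3 ran from 6.45 to 6.96 in Wildtype (median 6.54) and from 6.12 to 6.68 in ApoE-Stab2-KO arrays (median 6.29). The groups overlapped, and the difference of -0.26 ± 0.10 (adjusted p = 0.450) was -0.19 ± 0.10 (adjusted p = 0.722) without Wildtype replicate 1, the array at 6.96. Col5a2 had group means between 6.01 and 6.13. Col27a1, a fibrillar collagen of cartilage among other tissues, was at 5.82 ± 0.12 (SD) in Wildtype and 5.66 ± 0.15 in ApoE-Stab1-KO arrays, a difference of -0.16 ± 0.07 (adjusted p = 0.414).

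Genes for types I and III, which mark fibrogenic activation in many tissues, had no called difference. Col1a1 ran from 5.01 to 5.45 in Wildtype (median 5.10), with 5.10, 5.14, 5.26, 5.20 and 4.82 in ApoE-KO, from 5.03 to 5.43 in ApoE-Stab1-KO (median 5.23) and from 4.86 to 5.24 in ApoE-Stab2-KO arrays (median 5.08). The groups overlapped throughout, and its differences from Wildtype had adjusted p of 0.747 or more. Between ApoE-Stab2-KO (mean 5.06) and ApoE-Stab1-KO plasma (mean 5.23) Col1a1 differed by -0.17 ± 0.08 (adjusted p = 0.455). Col1a2 had group means between 3.91 and 3.95. Col3a1 had 3.89 ± 0.18 (SD) in Wildtype and 4.08 ± 0.24 in ApoE-Stab1-KO arrays, and the 95% interval of that difference ran from -0.04 to 0.41.

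Among the 25 other collagens the medians against Wildtype were 0.011, 0.026 and 0.0013, with 11, 11 and 12 genes lower. Col8a1 was steady: its lowest and highest arrays were 9.87 and 10.10, its SD within groups was 0.062, beside a median of 0.118 for the collagens and 0.117 for all genes, and the intervals of its 3 differences from Wildtype lay between -0.16 and 0.09. Col6a1 had group means between 7.24 and 7.29. Col13a1 and Col23a1, transmembrane collagens that act at cell contacts, and Col25a1, another transmembrane collagen, were each lowest on average with ApoE-Stab2-KO plasma. These 3 are named for their small F-test p. The group means of Col17a1, also a transmembrane collagen, all lay between 4.25 and 4.29 (limma F-test, unadjusted p = 0.928). For Col13a1 the Wildtype arrays ran from 8.16 to 8.45 (median 8.30), and the ApoE-KO arrays had 8.04, 8.18, 8.31, 8.19 and 8.17. The ApoE-Stab1-KO arrays ran from 8.01 to 8.28 (median 8.21) and the ApoE-Stab2-KO arrays from 7.99 to 8.23 (median 8.02). ApoE-Stab2-KO arrays were low but overlapped with every other group. The difference from Wildtype was -0.23 ± 0.06 (0.851-fold; adjusted p = 0.164), and it was -0.20 (adjusted p = 0.347) without Wildtype replicate 1.

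Col23a1 ran from 6.77 to 7.14 in Wildtype (median 6.95) and from 6.60 to 6.90 in ApoE-Stab2-KO arrays (median 6.75), with 6.93, 6.93, 6.85, 6.89 and 6.91 in ApoE-KO arrays and 6.742 to 6.997 in ApoE-Stab1-KO arrays (median 6.92). It overlapped between all groups, and ApoE-Stab2-KO plasma differed from Wildtype by -0.19 ± 0.06 (adjusted p = 0.310), from ApoE-KO by -0.15 ± 0.07 (adjusted p = 0.541) and from ApoE-Stab1-KO by -0.15 ± 0.06 (adjusted p = 0.375). Col9a2, a chain of a collagen that coats cartilage fibrils, was the most variable of the collagens within groups, with an SD of 0.237. It ran from 6.84 to 7.42 in Wildtype, from 6.53 to 7.50 in ApoE-Stab1-KO and from 6.64 to 6.84 in ApoE-Stab2-KO arrays, with 6.98, 6.93, 7.35, 7.02 and 6.75 in ApoE-KO arrays. The ApoE-Stab2-KO arrays were low and close together, inside the range of the ApoE-Stab1-KO arrays. The difference of ApoE-Stab2-KO plasma from Wildtype was -0.33 ± 0.13 (adjusted p = 0.432). Wildtype replicate 1 was the highest Wildtype array for Col23a1 and Col9a2. Without it the differences of ApoE-Stab2-KO plasma from Wildtype were -0.15 for Col23a1 (adjusted p = 0.575) and -0.26 for Col9a2 (adjusted p = 0.687).

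**Figure D4:**
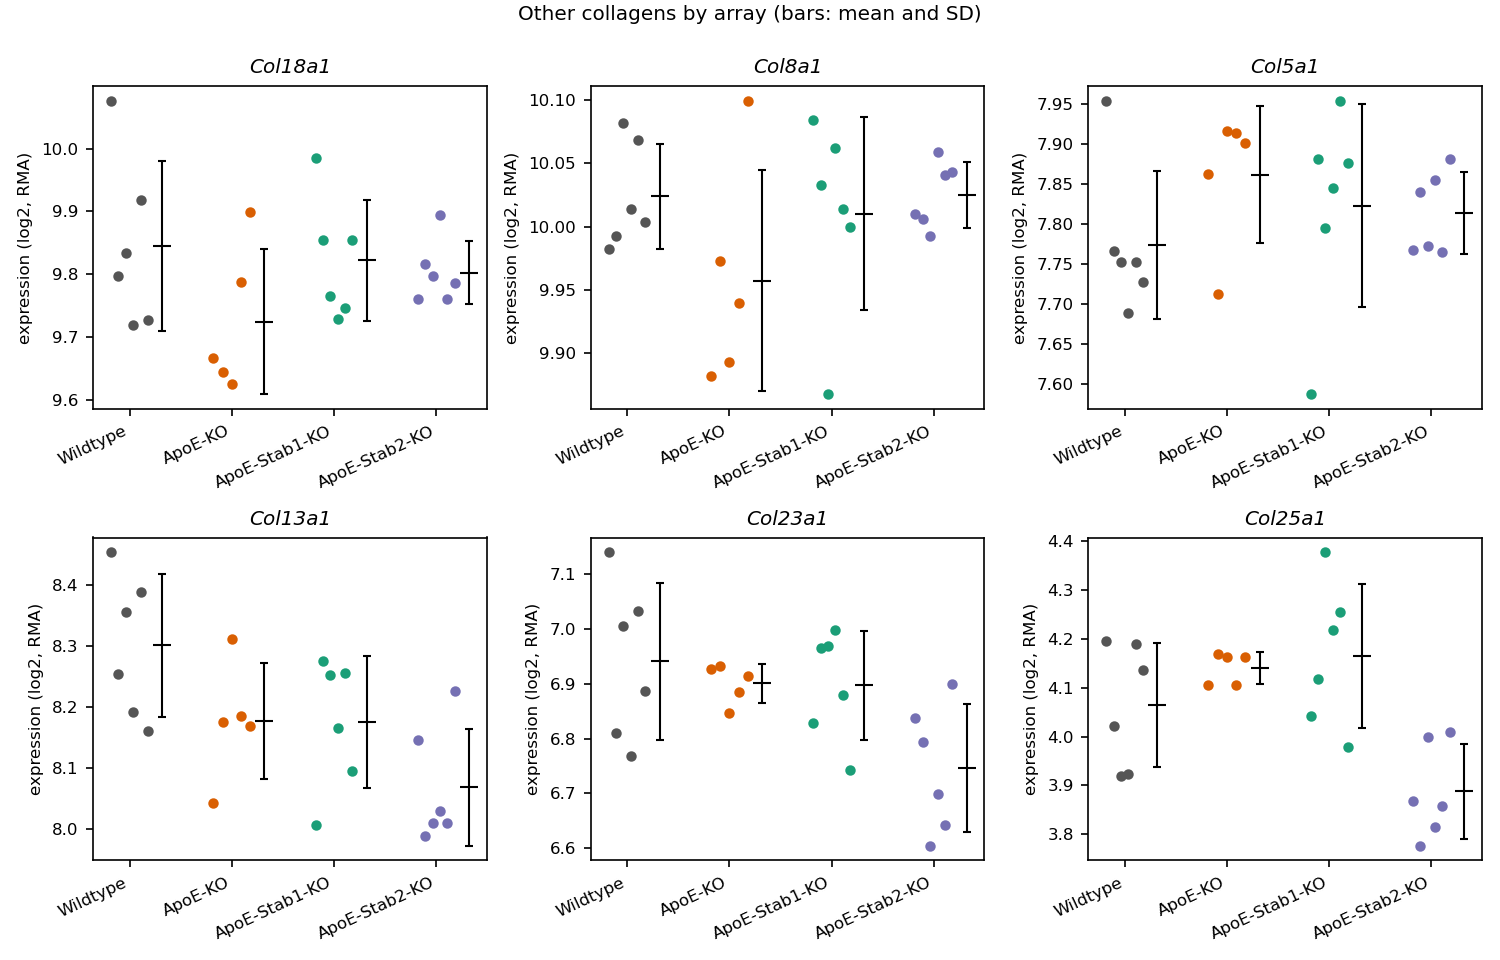
Log2 expression by array and plasma, with the mean and SD of each group, of Col18a1, Col8a1 and Col5a1 (top) and of Col13a1, Col23a1 and Col25a1 (bottom). The 3 genes of the lower row have their lowest group mean with ApoE-Stab2-KO plasma (8.07, 6.75 and 3.89); the vertical scales differ between panels and do not start at 0.

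The comparisons between knockout plasmas hold the diet equal. Those with ApoE-KO plasma ask what the loss of a stabilin adds to the loss of ApoE, and the third sets the 2 stabilin losses side by side. At an unadjusted p under 0.05, ApoE-Stab1-KO against ApoE-KO gave 1 collagen higher and 0 lower (2.83% and 2.74% of all genes). ApoE-Stab2-KO against ApoE-KO gave 0 higher and 3 lower (3.94% and 4.42%). ApoE-Stab2-KO against ApoE-Stab1-KO gave 0 higher and 6 lower (5.2% and 5.78%). Leaving out single arrays moved the 3 to between 2 and 5 (5 when ApoE-KO replicate 5 was left out, or else replicate 1 of ApoE-Stab1-KO) and the 6 to between 3 and 8 (3 without ApoE-Stab1-KO replicate 3 or 5). By direction alone, 30 of 44 collagens (68.2%, beside 52% of all genes) were lower with ApoE-Stab2-KO than with ApoE-Stab1-KO plasma, with a median of -0.038, beside -0.0039 for all genes. Against ApoE-KO plasma, 27 of 44 were lower with ApoE-Stab2-KO (61.4%, beside 51.9%) and 20 of 44 with ApoE-Stab1-KO plasma (45.5%, beside 49.8%). Col25a1 had the smallest unadjusted p of the collagens in the F-test (adjusted p = 0.105), although its mean level of 4.06 lay below the median of all genes. Its ApoE-KO arrays had 4.10, 4.17, 4.16, 4.11 and 4.16, its ApoE-Stab1-KO arrays ran from 3.98 to 4.38 (median 4.17), its ApoE-Stab2-KO arrays from 3.78 to 4.01 (median 3.86) and its Wildtype arrays from 3.92 to 4.20 (median 4.08). All ApoE-Stab2-KO arrays lay below all ApoE-KO arrays, as in 0.781% of all genes, and they overlapped with the other 2 groups. The differences of ApoE-Stab2-KO plasma were -0.28 ± 0.06 from ApoE-Stab1-KO (0.825-fold; adjusted p = 0.0983), -0.25 ± 0.07 from ApoE-KO (adjusted p = 0.255) and -0.18 ± 0.06 from Wildtype (adjusted p = 0.402).

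Some collagens outside the fixed rule for names also had an unadjusted p under 0.05 and are named after their values were seen. Col20a1 was lower with ApoE-KO (-0.15 ± 0.07, adjusted p = 0.436) and ApoE-Stab1-KO plasma (-0.18 ± 0.06, adjusted p = 0.270) than with Wildtype plasma. Col28a1 was lower with ApoE-Stab2-KO plasma (-0.17 ± 0.08, adjusted p = 0.551) and Col14a1 higher with ApoE-Stab1-KO plasma (0.13 ± 0.06, adjusted p = 0.393) than with Wildtype plasma. Col22a1 was lower with ApoE-Stab2-KO than with ApoE-KO plasma (-0.13 ± 0.06, adjusted p = 0.587). With these, 16 of the 44 collagens reached an unadjusted p under 0.05 in at least 1 of the 6 comparisons, as did 30.7% of all genes.

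Single arrays stood high or low for many collagens at once. Wildtype replicate 1 was the highest of the 6 Wildtype arrays for 20 of 44 collagens and for 13 of the 22 above the median, while it was highest for 20.6% of all genes. The median deviation of those 22 from their Wildtype means was 0.153. ApoE-Stab1-KO replicate 1 was the lowest of its group for 13 of the same 22, beside 21.8% of all genes, with a median deviation of -0.168. That array was also the highest of its group for 25% of all genes. Its deviations from the group means over all genes had an SD of 0.208, beside 0.109 to 0.156 in the other arrays. Both arrays enter the group means above. When Wildtype replicate 1 was left out, 2, 2 and 7 collagens were lower at an unadjusted p under 0.05 with plasma of ApoE-KO, of ApoE-Stab1-KO and of ApoE-Stab2-KO mice, beside 4.49%, 4.83% and 3.57% of all genes.

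Genes that make collagen were also read from the same fit. Of 32 listed, 30 were measured (Fkbp10 and Adamts2 were not analysed here) and 25 were above the median. Plod2 passed in the comparison of ApoE-Stab1-KO with Wildtype plasma, where 0.174% of all genes were called higher, and the other 29 passed in none of the 6. Plod2 encodes a lysyl hydroxylase that prepares collagen for stable cross-links. Its Wildtype arrays ran from 8.75 to 9.04 (median 8.83) and its ApoE-Stab1-KO arrays from 9.02 to 9.17 (median 9.05). Wildtype replicate 6, at 9.04, lay inside the range of the ApoE-Stab1-KO arrays. Plod2 rose by 0.22 ± 0.05 (1.17-fold; limma adjusted p = 0.0415) with ApoE-Stab1-KO plasma. Its ApoE-KO arrays, at 9.07, 9.13, 9.01, 9.05 and 8.99, were 0.20 ± 0.05 above Wildtype (adjusted p = 0.0850), and its ApoE-Stab2-KO arrays, from 8.91 to 9.09 (median 8.99), 0.13 ± 0.05 (adjusted p = 0.411). The call with ApoE-Stab1-KO plasma was lost in 13 of 23 fits that each left out 1 array, with adjusted p between 0.0123 and 0.103, and in 3 of 8 other settings, with adjusted p up to 0.210. Plod2 passed with ApoE-KO plasma when Wildtype replicate 6 was left out (adjusted p = 0.0239).

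No enzyme that hydroxylates proline, a step the triple helix needs to be stable, passed the test in this fit. P4ha1, a catalytic subunit of prolyl hydroxylase, ran from 9.19 to 9.37 in Wildtype (median 9.27) and had 9.46, 9.45, 9.49, 9.48 and 9.38 in ApoE-KO arrays, with no overlap, as 1.08% of all genes showed upwards. The difference was 0.17 ± 0.05 (adjusted p = 0.135), and with ApoE-Stab1-KO plasma, where the groups overlapped, 0.18 ± 0.05 (adjusted p = 0.0871). P4ha3, another such subunit, ran from 5.72 to 5.92 in Wildtype (median 5.81) and from 6.00 to 6.32 in ApoE-Stab2-KO arrays (median 6.10). These did not overlap, as for 0.636% of all genes upwards, and the difference was 0.34 ± 0.10 (adjusted p = 0.222). It passed when only the arrays of the 2 groups were fitted (adjusted p = 0.0426) or without ApoE-KO replicate 3 (adjusted p = 0.0430), the array with 5.37. P4ha2, a further subunit, is named after its values were seen. Its means were 7.69 in Wildtype, 7.82 in ApoE-KO, 7.81 in ApoE-Stab1-KO and 7.83 in ApoE-Stab2-KO arrays (limma adjusted p of 0.410 or more). All its ApoE-KO arrays (7.75 or higher) lay above all Wildtype arrays (7.73 or lower). Such separation was seen upwards for 3 of the 30 genes listed and downwards for 0, beside 1.08% and 0.891% of all genes. Colgalt1, which adds galactose to hydroxylysine, was at 9.16 ± 0.08 (SD) in Wildtype and 8.98 ± 0.05 in ApoE-Stab1-KO arrays, a difference of -0.18 ± 0.05 (adjusted p = 0.129). Over the 30 genes the median differences from Wildtype were 0.048, 0.027 and 0.052 with plasma of ApoE-KO, of ApoE-Stab1-KO and of ApoE-Stab2-KO mice, beside 0.0026, 0.0037 and -0.0020 for all genes, and 20, 17 and 19 of 30 were higher. At an unadjusted limma p under 0.05, 6, 3 and 6 of the 30 were higher, beside 5.41%, 5.74% and 4.27% of all genes. Lower were 1, 1 and 2, beside 5.12%, 5.55% and 4.22%. Loxl2, named after its values were seen, had the largest difference from Wildtype of the 30, 0.63 with ApoE-KO plasma. Its means were 4.95 ± 0.44 (SD) in Wildtype and 5.57 ± 0.23, 5.14 ± 0.47 and 5.35 ± 0.19 with the 3 knockout plasmas. Its groups overlapped, with limma adjusted p of 0.196 or more.

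**Figure D5:**
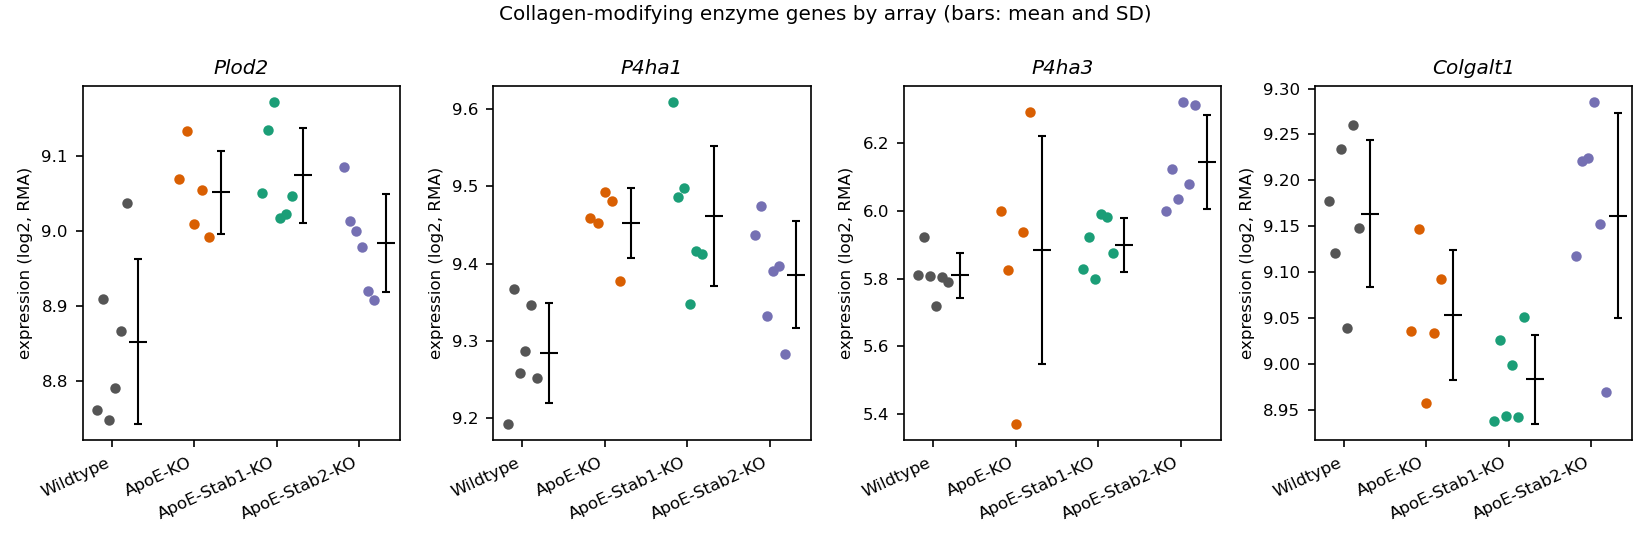
Log2 expression by array and plasma, with the mean and SD of each group, of 4 genes whose enzymes modify collagen chains: Plod2, P4ha1, P4ha3 and Colgalt1. Plod2 and P4ha1 have their lowest group mean with Wildtype plasma (8.85 and 9.28), and the vertical scales differ between panels and do not start at 0.

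Collagen receptors and the other parts of the basement membrane had no gene called by limma in any comparison. All 10 receptor genes listed were measured and 7 were above the median. Itga1, the integrin chain that pairs with Itgb1 to bind type IV collagen, had means of 9.49 ± 0.05 (SD) in Wildtype and 9.36 ± 0.12, 9.39 ± 0.12 and 9.35 ± 0.10 with plasma of ApoE-KO, of ApoE-Stab1-KO and of ApoE-Stab2-KO mice, with adjusted p of 0.467 or more for the differences. Ddr2, a receptor tyrosine kinase for fibrillar collagen, had wide spreads, with 5.02 ± 0.36 in Wildtype and 5.34 ± 0.15 in ApoE-KO arrays (adjusted p = 0.449). The receptor Mrc2, which takes up collagen fragments, and the inhibitory receptor Lair1 differed from Wildtype by 0.13 or less in size. All 10 basement membrane partners were measured and above the median. Perlecan, from Hspg2, was at 10.24 ± 0.19 in Wildtype and 10.03 ± 0.17, 10.06 ± 0.08 and 10.04 ± 0.14 with the 3 knockout plasmas (differences of -0.21 ± 0.09, -0.18 ± 0.08 and -0.20 ± 0.08, adjusted p of 0.377, 0.413 and 0.511), and without Wildtype replicate 1 the Hspg2 differences were -0.14, -0.11 and -0.12. The laminin chain gene Lama4 had all ApoE-Stab2-KO arrays (9.28 to 9.37) below all ApoE-Stab1-KO arrays (9.39 to 9.62), as 0.381% of all genes showed, with a difference of -0.15 ± 0.04 (adjusted p = 0.110). The ApoE-Stab2-KO arrays of Lama4 also lay below all ApoE-KO arrays (9.40 to 9.45), as 0.781% of all genes showed. They overlapped with the Wildtype arrays (9.31 to 9.43). The laminin genes Lamb2 and Lama5 differed from Wildtype by at most 0.13 and 0.11 in size.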

How the data were processed

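Total RNA of endothelial cells was hybridised as biotin-labelled cRNA to 23 Affymetrix arrays, per the labels' protocols. Per the submitters' processing notes, the authors made the deposited log2 values with RMA, whose version is not given, nor are the probe annotation and genome build, in the sources used here. Groups came from the labels, and replicate numbers did not enter the main fit. Of 25428 probe sets, 24705 had 1 gene symbol in the platform annotation, 0 several and 723 none, and keeping the brighter probe set of a repeated symbol left 24704 genes. Group means were compared with limma 3.58.1 under R 4.3.3 (lmFit, eBayes, 1 mean per group over 23 arrays, 19 residual and 4.19 prior degrees of freedom), with Benjamini-Hochberg adjustment over all 24704 genes and calls at an adjusted p under 0.05, with no filter on dim genes. Unless stated otherwise, ± after a difference is its standard error and ± after a level the SD, and p-values are two-sided. Correlations used 100000 permutations within groups, in Python 3.11.15. The code was tested on simulated data. The number of arrays limits the precision.

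The members and gene lists were chosen with earlier results of these data known. Named genes are the 5 collagens with the smallest F-test p, the 4 brightest of each class, all type IV chains, Col1a1, Col1a2 and Col3a1, and from the 3 lists of collagen-related genes any called gene and the 4 with the smallest F-test p. Further collagens are named to account for all members. P4ha2 and Loxl2 were named outside this rule, after their values were seen. Promoters came from RefSeq's GRCm38.p6 table, matched by symbol, which held 35 of the 44 collagens, and figures were drawn with matplotlib 3.10.9. Alternatives were a repeated quantile normalization, centring arrays on their medians, array weights, a trended robust variance, each probe set as its own feature, genes above the median only, only the arrays compared, a replicate block, and leaving out each array.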

Additional observations from a re-analysis of the deposited data

Results flagged for a closer look

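In 128 sets of values (genes named by the rule above, in each of the 4 groups), 9 held an array whose gap to its nearest neighbour was large for the range of its group, by a limit that chance passes in about 1 of 20 sets. Wildtype replicate 1 was the high array in 4 of them: Col4a1 at 10.44 (next 10.17), Col4a2 at 10.22 (next 10.03), Col5a1 at 7.95 (next 7.77) and Col5a3 at 6.96 (next 6.58). ApoE-Stab1-KO replicate 1 was the low array for Col4a4 at 3.43 (next 3.69) and Col4a6 at 3.43 (next 3.67). Col1a1 was high in Wildtype replicate 6 at 5.45 (next 5.17). Col5a1 was low in ApoE-KO replicate 2 at 7.71 (next 7.86), and the laminin gene Lama5 was low in ApoE-Stab1-KO replicate 4 at 9.86 (next 10.01).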

How the results depend on the processing

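The count of collagens called stayed at 0 in the F-test and in 5 of the 6 comparisons under every alternative run (7 for the F-test, 8 for each comparison) and without any single array. In the comparison of ApoE-Stab1-KO with Wildtype plasma it was 1 with the trended and robust variance (Col4a1, adjusted p = 0.0466) and 0 otherwise. Some alternatives could change little: RMA had already brought the arrays to 1 distribution, and 24705 probe sets with a symbol gave 24704 genes. Genes above the median only gave an adjusted p of 0.0507 for Col4a1, and its range over the 8 settings was 0.0466 to 0.310. The count of neighbouring pairs whose correlation passed ranged from 0 to 1 over the fits without 1 array. Over 197 gene-level results and 6035 alternative values, 6014 kept their side of the threshold, 16 lost the call and 5 gained it. Only 1 of the 197 results was called in the main fit, Plod2 with ApoE-Stab1-KO against Wildtype plasma, and all 16 losses were of that call. The 6014 are therefore mostly values that were uncalled in both fits. No called value changed sign, while 174 values of 58 results, uncalled and at most 0.0774 in size before, did. Arrays with the same replicate number showed little common deviation over all genes (33 pairs, r from -0.0958 to 0.106, 1 over 0.1). Such r would stay near 0 if a shared culture or mouse acted on few genes, so it cannot decide whether the numbers pair the arrays. With the replicate block the count of collagens called was 0 in every comparison, and the call of Plod2 was lost (adjusted p = 0.0733).

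The arrays have no counts or depth, and 22 of the 44 collagens lay at or below the median of all genes.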
